A study of Homo sapiens with 4 samples.

Results

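The MAP kinase phosphatases described here are 10 dual-specificity phosphatase genes chosen by symbol from the deposited gene table: DUSP1, DUSP2, DUSP4, DUSP5, DUSP6, DUSP7, DUSP8, DUSP10, DUSP14 and DUSP16. All 10 stood among the 28278 genes of the table, and 9 of them were among the 17271 genes with enough counts to be tested. They were measured by RNA sequencing in A549 cells, a human lung adenocarcinoma line, in a stable line made with a lentiviral CBX7 expression construct (labelled OE_CBX7, 2 libraries) and in a stable line made with a lentiviral control construct (labelled Control and WT in genotype, 2 libraries). CBX7 is a chromobox subunit of Polycomb repressive complex 1, and the design asks which transcripts differ when it is overexpressed. Both lines went through lentiviral infection and no untransduced cells were among the samples, and the labels do not say whether the 2 libraries of a line came from separate cultures, so the spread between them may be technical.

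MAP kinases are switched on by phosphorylation of a threonine and a tyrosine in their activation loop, and MAP kinase phosphatases switch them off by removing both phosphates. DUSP1, DUSP2, DUSP4 and DUSP5 are nuclear enzymes whose genes are induced by the pathways they restrain, DUSP6 and DUSP7 are cytoplasmic and prefer ERK, and DUSP8, DUSP10 and DUSP16 prefer the stress kinases JNK and p38. DUSP14 is an atypical small member without the N-terminal domain that binds MAP kinases. Because several of these genes are transcribed in response to MAP kinase activity, their transcripts are widely read as feedback markers of the pathway.

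Library totals were 90765502 and 88861255 estimated counts for OE_CBX7 libraries 1 and 2, and 88091494 and 69877585 for Control libraries 1 and 2. CBX7 itself, which checks the labels, averaged 18.1 ± 1.31 CPM in OE_CBX7 and 8.37 ± 0.521 CPM in Control (SD, n = 2 each; log2 fold change 1.11, edgeR adjusted p = 0.000141). SOCS3, the gene in the series title, had 11.1 and 8.23 CPM in the OE_CBX7 libraries, against 43.8 and 40.8 CPM in the Control libraries. CPM values are counts scaled to a common depth by each library's total and TMM factor. Of 10 markers of A549 and lung adenocarcinoma cells, 8 were at 24.2 CPM or more in each library, while EPCAM (0.650 to 1.61 CPM over all libraries) and KRT19 (0.0748 to 0.453 CPM) were low. All 10 were tested, and 3 were higher in OE_CBX7 at an edgeR adjusted p under 0.05. These were AKR1C1, AKR1B10 and FGA, with log2 fold changes of 1.03, 0.57 and 1.36, and 0 were lower. Of 8 leukocyte markers 4 were tested, 2 were lower (CD68 and ITGAM) and 1 was higher (CD14), and the summed level of the list was 27.8 and 27.4 CPM in OE_CBX7 against 166 and 172 CPM in Control, most of it from CD68 (23.5 and 23.6 CPM in OE_CBX7 against 158 and 165 CPM in Control); ITGAM had 0.822 and 0.820 CPM in OE_CBX7 against 6.13 and 4.59 CPM in Control, CD14 had 3.09 and 2.52 CPM in OE_CBX7 against 1.25 and 1.36 CPM in Control, and the defining markers PTPRC, CD3E and LYZ lay between 0 and 0.0961 CPM. The 8 fibroblast markers summed to 8.91 and 8.05 CPM in OE_CBX7 and to 5.71 and 8.28 CPM in Control, with THY1 at 0, and the 6 endothelial markers to 2.98 and 3.84 CPM in OE_CBX7 and to 1.64 and 1.01 CPM in Control. Of 5 tested fibroblast markers 0 were lower or higher. Of 4 tested endothelial markers 1 was higher, CDH5, with 2.69 and 3.12 CPM in OE_CBX7 against 1.22 and 0.513 CPM in Control. The part of these differences in the results was not tested.

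The stretches just before the transcription start of the 5 members that fell and have an entry in the RefSeq promoter table (GRCh38.p14) are shown because this is where signal-responsive factors are known to bind in DUSP1 and where the members differ in sequence. Each line gives the 150 bases from position -150 to position -1, 5′ to 3′ along the gene (for DUSP10, upstream of the farther of its starts), with exact matches to the searched motifs in capitals:
DUSP1 (chr5:172771196-172771345, minus strand): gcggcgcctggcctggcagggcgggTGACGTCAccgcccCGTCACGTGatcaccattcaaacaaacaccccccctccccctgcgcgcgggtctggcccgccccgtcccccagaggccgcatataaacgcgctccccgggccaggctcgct
DUSP8 (chr11:1572272-1572421, minus strand): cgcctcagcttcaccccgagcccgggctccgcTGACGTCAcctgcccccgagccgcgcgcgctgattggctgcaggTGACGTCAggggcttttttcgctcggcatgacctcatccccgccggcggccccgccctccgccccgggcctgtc
DUSP6 (chr12:89352502-89352651, minus strand): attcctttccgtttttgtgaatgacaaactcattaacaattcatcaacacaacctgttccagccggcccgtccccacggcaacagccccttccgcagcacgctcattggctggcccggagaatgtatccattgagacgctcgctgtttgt
DUSP10 (chr1:221742090-221742239, minus strand): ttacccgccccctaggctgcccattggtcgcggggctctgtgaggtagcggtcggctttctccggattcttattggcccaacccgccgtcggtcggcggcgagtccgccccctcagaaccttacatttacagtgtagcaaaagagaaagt
DUSP16 (chr12:12562864-12563013, minus strand): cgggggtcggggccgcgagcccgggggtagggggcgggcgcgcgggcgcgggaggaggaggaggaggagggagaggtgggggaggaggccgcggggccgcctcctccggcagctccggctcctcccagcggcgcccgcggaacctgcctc

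Across the 300-base windows of the table, 250 bases before to 50 after the start, 8 of the 10 members had an entry, and DUSP10 had 2 starts. The motifs searched on both strands were the cyclic AMP response element or CRE (TGACGTCA), the half-site of that element (TGACG), the AP-1 site (TGANTCA), an ETS site (CCGGAAGT), the E-box (CACGTG), an NF-kB site (GGGNNTTCC) and a STAT site (TTCNNNGAA). DUSP1 held 1 full CRE, with its first base at position -125, and a separate half-site at -172. It also held an E-box at -108 that overlaps a further half-site at -111. DUSP8 held 2 full CREs, at -118 and -74. The full CRE occurred in 1.85% of the 35116 promoter windows, and the half-site, which each full CRE contains on both strands, in 24.6%. DUSP2 held an E-box at -113, a motif found in 7.26% of windows, and the second start of DUSP10 held a half-site. None of the member windows held the AP-1, ETS, NF-kB or STAT string, found in 7.71%, 4.14%, 6.58% and 7.66% of windows. These matches are a description of letters, not of bound factors.

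Transcripts of the family were lower in CBX7-overexpressing cells. Of 9 tested members, 6 fell (DUSP1, DUSP5, DUSP6, DUSP8, DUSP10 and DUSP16), by 1.50-fold to 2.87-fold, and DUSP4, DUSP7 and DUSP14 did not pass the test. A gene was called at a Benjamini-Hochberg adjusted p under 0.05 over all tested genes in edgeR's quasi-likelihood test. Over all tested genes 24.4% were called, 13.9% as lower and 10.5% as higher in OE_CBX7. The members were chosen with earlier results of these data known, so setting them beside these shares is a description only. No member was called higher by edgeR, DESeq2 or limma-voom, and none had a positive log2 fold change in any of these tools. The median log2 fold change of the 9 members was -0.91, beside -0.00015 over all tested genes. The OE_CBX7 libraries lay below both Control libraries for 8 of the 9 tested members, a pattern that 31.9% of all tested genes showed downward and 30.8% upward. In cultured cells, a smaller fraction of cells expressing a gene and less transcript per cell cannot be told apart in such libraries.

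**Figure D1:**
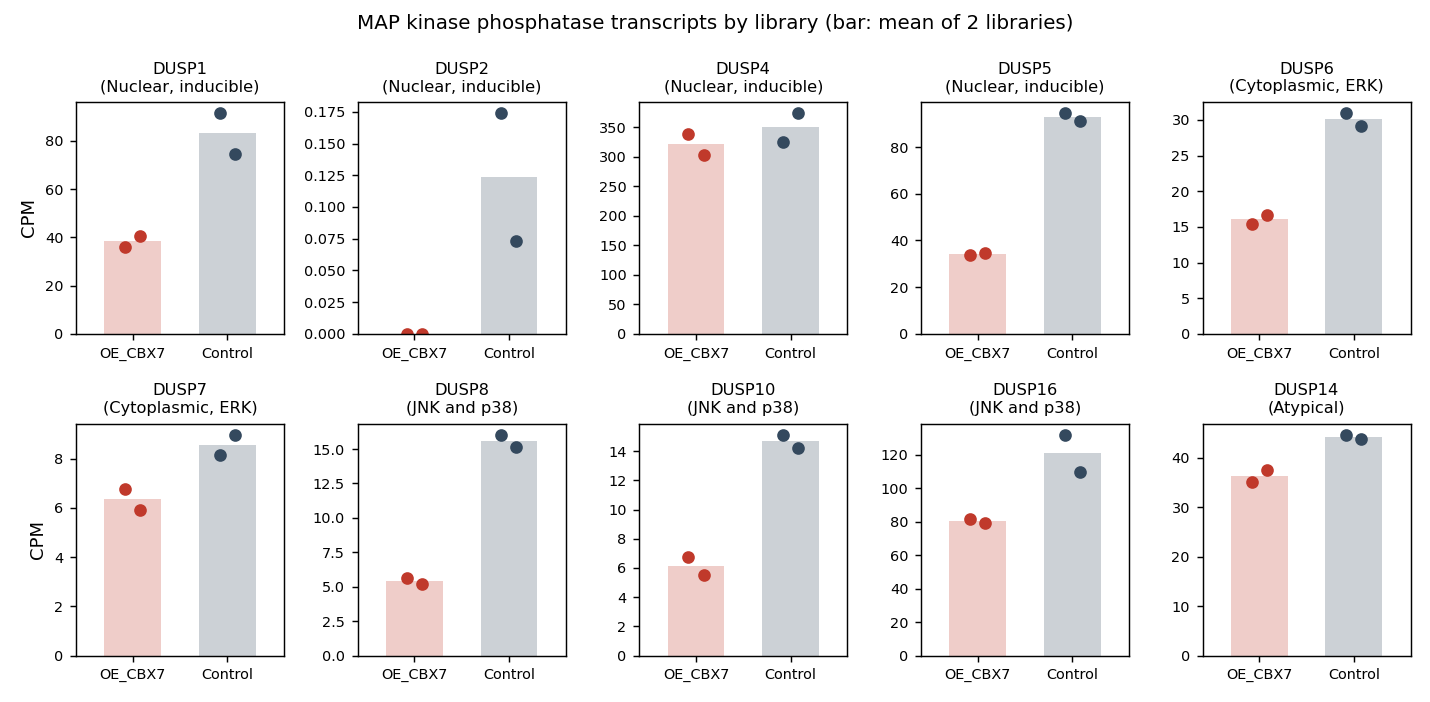
CPM of each of the 10 members in each library, with OE_CBX7 on the left and Control on the right of each panel; points are libraries, bars are means of 2 libraries, and each panel has its own axis from 0. The OE_CBX7 points lie below the Control points in every panel except that of DUSP4, where 303.6 and 338 CPM overlap with 326 and 374 CPM.

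Among the nuclear inducible enzymes, 2 of 3 tested genes fell, beside 13.9% of all tested genes called lower. Classes of 2 or 3 tested genes are too small to compare with each other. DUSP5, a nuclear phosphatase specific for ERK, had 33.9 and 34.5 CPM in the OE_CBX7 libraries, against 94.6 and 91.1 CPM in the Control libraries. The groups lay far apart and the libraries of each were close, and DUSP5 (chromosome 10, 110497907 to 110511533, GRCh38) was the member with the smallest p. Its log2 fold change was -1.44 (SE 0.108, adjusted p = 2.85e-07), a 2.71-fold difference. DUSP1, the immediate early phosphatase that acts on p38, JNK and ERK (chromosome 5, 172768096 to 172771195), had 35.9 and 40.7 CPM in the OE_CBX7 libraries, against 91.6 and 74.6 CPM in the Control libraries. Control library 1 was the highest, and both OE_CBX7 libraries were well below either Control library. The log2 fold change of DUSP1 was -1.12 (SE 0.126, adjusted p = 1.86e-05); its promoter is the one shown with a single full CRE.

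DUSP4, a nuclear phosphatase of ERK and JNK with the most counts of the family (chromosome 8, 29333064 to 29350684), had 338 and 303.6 CPM in the OE_CBX7 libraries, against 326 and 374 CPM in the Control libraries. These values overlap: OE_CBX7 library 1 exceeded Control library 1. The log2 fold change of DUSP4 was -0.12 (SE 0.103, adjusted p = 0.433), with a 95% interval from -0.35 to 0.097, which does not reach the sizes seen for DUSP1 and DUSP5. DUSP2, which is known mainly from blood cells, was near the floor, with 0 counts in both OE_CBX7 libraries and 15 and 5 counts in the Control libraries. It was left out of the test by the count filter. A floor of 3 counts per library allows up to 0.0320 and 0.0333 CPM in the OE_CBX7 libraries. The Control mean of DUSP2 was 3.79 times the mean of these floors, provided that a count of 0 stands for no reads. The error of the Control counts was left out, so this ratio is not a lower bound on the difference. It was 2.24 without Control library 1 and 5.33 without Control library 2. Without the filter DUSP2 was not called (edgeR adjusted p = 0.189).

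Within a library, the ratio of a pair of members does not depend on how libraries are scaled. DUSP4 counts were 9.98 and 8.80 times those of DUSP5 in the OE_CBX7 libraries, against 3.44 and 4.11 times in the Control libraries. DUSP1 counts were 0.106 and 0.134 of those of DUSP4 in the OE_CBX7 libraries, against 0.281 and 0.199 in the Control libraries. Neither ratio overlapped between the groups, so the loss of DUSP1 and DUSP5 counts relative to DUSP4 was seen in each library. With 2 libraries against 2, the exact two-sided permutation p of each ratio was 0.333, the smallest it can be.

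Of the 2 cytoplasmic ERK phosphatases among the members, 1 fell, beside 13.9% of all tested genes called lower. DUSP9, a further phosphatase of this class outside the members, had few counts and was not called. It had 0.427 and 0.576 CPM in OE_CBX7 against 0.163 and 0.308 CPM in Control (edgeR adjusted p = 0.406). DUSP6, the ERK-specific feedback phosphatase, had 15.5 and 16.7 CPM in the OE_CBX7 libraries, against 31.0 and 29.2 CPM in the Control libraries (chromosome 12, 89347235 to 89352501). The groups did not overlap, and the log2 fold change was -0.91 (SE 0.130, adjusted p = 0.000175). DUSP7, which shares its location and substrate, had 6.76 and 5.93 CPM in the OE_CBX7 libraries, against 8.15 and 8.97 CPM in the Control libraries. The libraries of DUSP7 did not overlap either, but its log2 fold change of -0.43 (SE 0.196, 95% interval -0.85 to -0.0094) had an unadjusted p of 0.0458 and an adjusted p of 0.131 in edgeR. DUSP6 counts were 2.29 and 2.81 times those of DUSP7 in the OE_CBX7 libraries, against 3.80 and 3.25 times in the Control libraries (exact two-sided permutation p = 0.333). DUSP5 counts, in turn, were 2.19 and 2.07 times those of DUSP6 in the OE_CBX7 libraries, against 3.05 and 3.12 times in the Control libraries. An antisense gene of the annotation, AC024909.2, overlaps 1875 exonic bases of DUSP6, and strandedness is not given in the sources used here, so reads of that transcript could be included in the DUSP6 count.

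All 3 phosphatases of JNK and p38 fell, beside 13.9% of all tested genes called lower. DUSP8 had 5.65 and 5.22 CPM in the OE_CBX7 libraries, against 16.0 and 15.2 CPM in the Control libraries (chromosome 11, 1554051 to 1572848). Its 2.87-fold difference was the widest of the tested members, and its log2 fold change was -1.52 (SE 0.171, adjusted p = 1.83e-05); its promoter is the one shown with 2 full CREs. DUSP10, a phosphatase of p38 and JNK, had 6.73 and 5.54 CPM in the OE_CBX7 libraries, against 15.1 and 14.2 CPM in the Control libraries (chromosome 1, 221701424 to 221742089). Its log2 fold change was -1.26 (SE 0.178, adjusted p = 0.000156). DUSP16, a JNK-directed phosphatase, was more abundant, with 81.7 and 79.2 CPM in the OE_CBX7 libraries, against 132 and 109.8 CPM in the Control libraries (chromosome 12, 12473282 to 12562863). The Control libraries of DUSP16 were the more spread, yet both stood above OE_CBX7, and the log2 fold change was -0.59 (SE 0.114, adjusted p = 0.00196).

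DUSP10 counts were 0.0824 and 0.0699 of those of DUSP16 in the OE_CBX7 libraries, against 0.114 and 0.129 in the Control libraries, with no overlap (exact two-sided permutation p = 0.333). DUSP14 (chromosome 17, 37488566 to 37513498) had 35.1 and 37.5 CPM in the OE_CBX7 libraries, against 44.6 and 43.7 CPM in the Control libraries. The libraries of DUSP14 did not overlap, and its log2 fold change of -0.28 (SE 0.114, 95% interval -0.53 to -0.037) had an unadjusted p of 0.0273 and an adjusted p of 0.0897 in edgeR. DUSP5 and DUSP8 have annotated processed pseudogenes, and how reads shared with such copies were counted is not given in the sources used here. DUSP5P1, the pseudogene present in the table, had 114 and 66 counts in the OE_CBX7 libraries and 91 and 44 counts in the Control libraries.

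**Figure D2:**
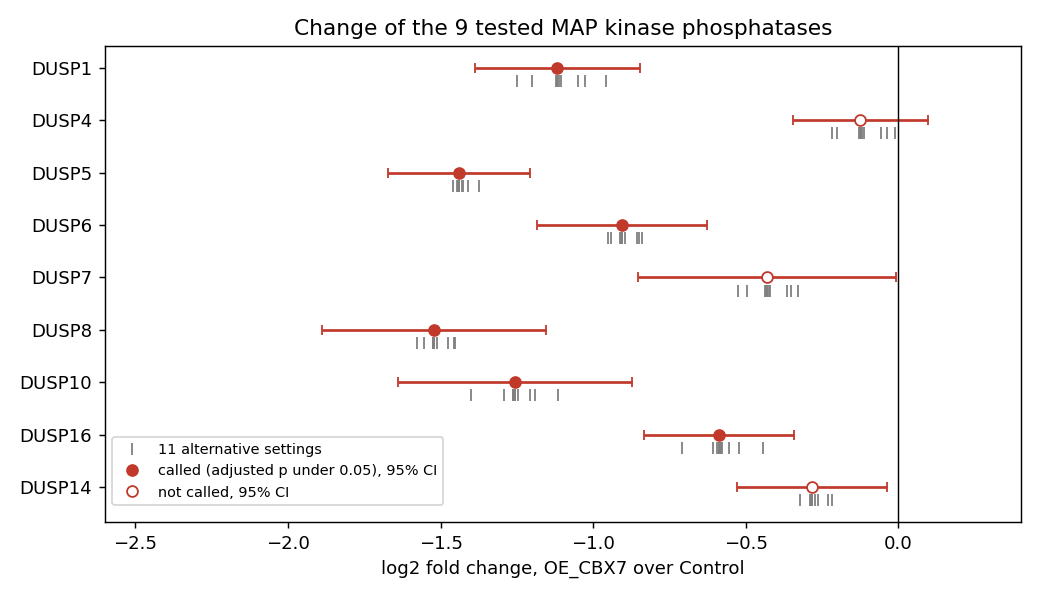
Log2 fold change (OE_CBX7 over Control) of the 9 tested members, in the order of their classes, with 95% intervals; filled points were called, open points were not, and grey ticks are the values under 11 alternative settings. The 6 called members lie between -1.52 and -0.59, and the interval of DUSP4 crosses 0.

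Levels can be compared between genes only per length, so CPM was divided by the kilobases of exon that the GENCODE 29 annotation gives each member. On this scale the 10 members together reached 116 and 114 CPM per kb in the OE_CBX7 libraries, against 189 and 180 CPM per kb in the Control libraries. DUSP4 led the OE_CBX7 libraries with 46.6 and 41.8 CPM per kb, ahead of DUSP1 with 17.8 and 20.1 CPM per kb. In the Control libraries DUSP4 (44.9 and 51.6 CPM per kb) and DUSP1 (45.3 and 37.0 CPM per kb) changed order from library 1 to library 2. DUSP1 lay above DUSP5 (37.0 and 35.6 CPM per kb) in each Control library, narrowly in library 2. After these came, in Control, DUSP16, DUSP14, DUSP6, DUSP10, DUSP8, DUSP7 and DUSP2, whose means ran from 23.0 to 0.0733 CPM per kb.

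Per kb, DUSP5 had the next highest mean after DUSP1 in Control, but not in OE_CBX7, where DUSP16 (15.5 and 15.1 CPM per kb) and DUSP14 (14.0 and 15.0 CPM per kb) lay above its 13.3 and 13.5 CPM per kb. DUSP4 made up 40.0% and 36.6% of the summed level in the OE_CBX7 libraries, against 23.8% and 28.6% in the Control libraries. DUSP1 and DUSP5 together made up 26.7% and 29.4% in the OE_CBX7 libraries, against 43.6% and 40.2% in the Control libraries, and accounted for 65.2% of the difference in the summed mean level. Neither share overlapped between the groups. The exon lengths pool all basic transcripts of a gene, so the levels are approximate where A549 cells use a shorter form.

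**Figure D3:**
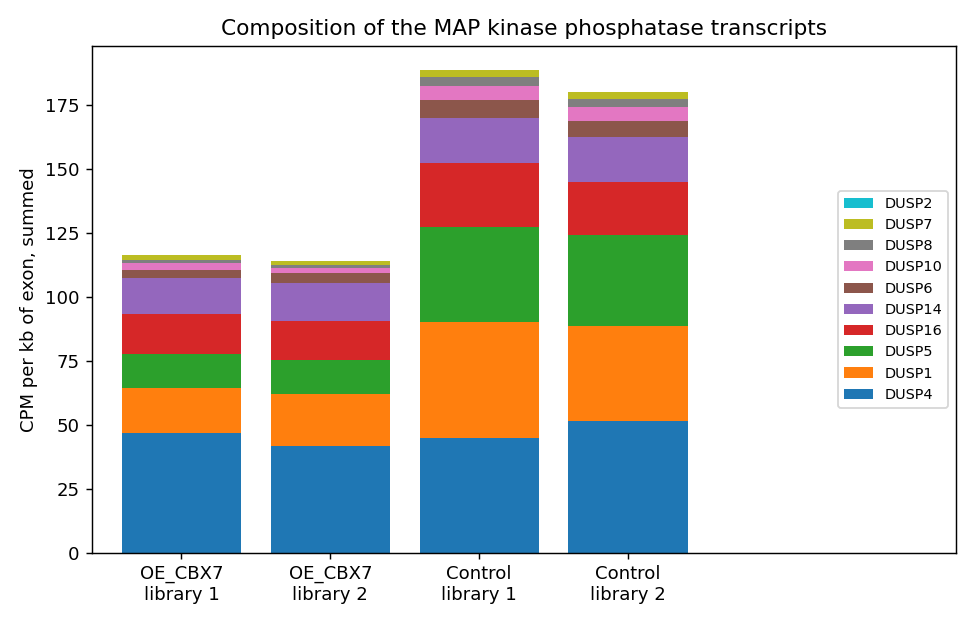
Stacked CPM per kb of exon of the 10 members in each library, OE_CBX7 libraries on the left and Control libraries on the right. The DUSP4 segment is of similar height in the 4 bars, while the DUSP1 and DUSP5 segments are shorter in OE_CBX7.

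The kinase lists hold the kinases that these phosphatases act on, enzymes and regulators above them, adaptors and scaffolds, and some kinases below them. Called genes made up 14.3% of the RAS-RAF-ERK list, 23.5% of the JNK list and 30.8% of the p38 list, beside 24.4% of all tested genes. In the RAS-RAF-ERK list, 2 of 21 tested genes were lower, 1 was higher and 18 were not called (median log2 fold change 0.088). BRAF, a kinase that activates MEK, had 25.7 and 23.2 CPM in OE_CBX7 against 42.1 and 37.4 CPM in Control (log2 fold change -0.70, adjusted p = 0.00105), and KSR2, a scaffold of the cascade, had 4.12 and 3.35 CPM in OE_CBX7 against 1.03 and 1.45 CPM in Control (adjusted p = 0.00313). The adaptor SHC1 was also lower (log2 fold change -0.31, adjusted p = 0.0274), but lost its call when any single library was left out, with log2 fold changes of -0.38 to -0.24: adjusted p was 0.0607 without Control library 1, 0.0871 without Control library 2, 0.0673 without OE_CBX7 library 1 and 0.288 without OE_CBX7 library 2. The count of higher genes in this list was 3 without Control library 1, with SOS2 among them, and 2 without OE_CBX7 library 1, where MAPK3 was added.

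A JNK and a p38 kinase, singled out after their values were seen, were not called. MAPK8 (JNK1) averaged 30.0 ± 0.592 CPM in OE_CBX7 and 29.7 ± 1.39 CPM in Control (SD, n = 2 each; 95% interval of the log2 fold change -0.24 to 0.27). MAPK14 (p38 alpha) averaged 53.5 ± 3.47 CPM in OE_CBX7 and 47.5 ± 3.39 CPM in Control (SD, n = 2 each; interval -0.074 to 0.42). MAPK10 and MAPK13, which had few counts, had wider intervals, from -0.90 to 1.33 and from -3.06 to 1.82.

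In the JNK list, 2 of 17 tested genes were lower, 2 were higher and 13 were not called (median 0.044). The scaffold MAPK8IP2 had 4.37 and 3.77 CPM in OE_CBX7 against 11.3 and 8.90 CPM in Control (log2 fold change -1.31, adjusted p = 0.000496), and the upstream kinase MAP3K13 fell with a log2 fold change of -0.70. The upstream kinases MAP3K12 and MAP3K10 rose, by 0.63 and 0.50 on the log2 scale; MAP3K10 lost its call without Control library 1 (adjusted p = 0.137), OE_CBX7 library 1 (0.225) or OE_CBX7 library 2 (0.123). In the p38 list, 2 of 13 were lower, 2 higher and 9 not called (median 0.15). The p38-activating kinases moved in opposite directions: MAP2K3 had 37.0 and 40.3 CPM in OE_CBX7 against 63.8 and 66.5 CPM in Control (adjusted p = 0.000217), and MAP2K6 had 26.3 and 22.5 CPM in OE_CBX7 against 13.8 and 12.7 CPM in Control (adjusted p = 0.000524). RPS6KA5, a nuclear kinase downstream of p38 and ERK, fell by 1.14 on the log2 scale, and MKNK2, a kinase of the translation factor eIF4E, rose by 0.56.

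Transcripts outside the family that are known to respond to ERK activity were mostly lower. Of 20 tested genes, 13 fell, 2 rose and 5 were not called, with a median log2 fold change of -0.62. The called share was 75%, beside 24.4% of all tested genes (13.9% lower and 10.5% higher). This list was chosen with earlier results of these data known, so its share is a description and not independent evidence. EGR1, an immediate early transcription factor, had 0.139 and 0.355 CPM in OE_CBX7 against 57.9 and 43.5 CPM in Control. FOSL1, an AP-1 subunit stabilised by ERK, had 18.7 and 17.0 CPM in OE_CBX7 against 114 and 119 CPM in Control (log2 fold change -2.71, adjusted p = 4.91e-10). PHLDA1, SPHK1 and TRIB1 fell by 1.63, 1.77 and 1.18 on the log2 scale, and SPRY2, a feedback inhibitor of receptor tyrosine kinase signalling, fell by 1.18. The genes that rose were the ETS factors ETV1 and ETV4, with 0.76 and 0.35; ETV4 lost its call without Control library 1 (adjusted p = 0.139), OE_CBX7 library 1 (0.136) or OE_CBX7 library 2 (0.197).

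A list of transcription factors known to act on DUSP or other early gene promoters had 10 of 16 tested genes lower, 1 higher and 5 not called (median -0.39). The called share was 68.8%, beside 24.4% of all tested genes. These factors, too, were listed with earlier results of these data known, so the share is a description only. JUNB and JUN had log2 fold changes of -2.65 and -2.67, ETS1, ETS2 and FOSL2 of -1.91, -1.33 and -1.22, and the NF-kB subunit RELA of -0.73; JUND was the gene that rose, by 0.64. CREB1, a factor that binds the CRE, had 51.6 and 43.4 CPM in OE_CBX7 against 71.3 and 56.4 CPM in Control, without overlap. Its log2 fold change of -0.43 (edgeR adjusted p = 0.0311) was not called with library totals in place of TMM (0.0647). It was -0.25 without Control library 1 and -0.30 without OE_CBX7 library 2, and CREB1 lost its call in each case. Of other CRE-binding factors in the list, CREM was lower (log2 fold change -0.52, edgeR adjusted p = 0.00471). CREM lost its call without OE_CBX7 library 1, with a log2 fold change of -0.49. ATF1 and ATF2 were not called (-0.16 and -0.18, edgeR adjusted p = 0.410 and 0.355).

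Among other phosphatases of the dual-specificity family and of MAP kinases, 23.5% were called, a share near the 24.4% of all tested genes. Of 17 tested genes, 3 were lower, 1 was higher and 13 were not called, with a median log2 fold change of 0.035. SSH3, a slingshot phosphatase that acts on cofilin, had 35.7 and 37.0 CPM in OE_CBX7 against 18.6 and 20.5 CPM in Control, and SSH1, its relative, had 99.5 and 95.7 CPM in OE_CBX7 against 135 and 133 CPM in Control. PTPRR, a receptor tyrosine phosphatase that binds ERK, had 0.139 and 0.255 CPM in OE_CBX7 against 1.54 and 0.513 CPM in Control (adjusted p = 0.0309). The calls of PTPRR, DUSP12 and SSH1 were not kept under every alternative. PTPRR was lost with limma-voom (adjusted p = 0.0647) and with the replicate block (0.0684), and DUSP12 with library totals in place of TMM (0.102) and with no count filter (0.0524). Among single libraries left out, PTPRR was lost without Control library 1 (adjusted p = 0.457) or OE_CBX7 library 1 (0.0909), SSH1 without OE_CBX7 library 2 (0.0692), and DUSP12 without Control library 1 (0.130), Control library 2 (0.0541), OE_CBX7 library 1 (0.227) or OE_CBX7 library 2 (0.268). The log2 fold change of STYX was 0.54 without Control library 1, beside 0.34 with all libraries. That of DUSP23 was 0.58 without Control library 2, beside 0.39 with all libraries. DUSP15 had few counts, 35 and 53 in OE_CBX7 against 33 and 0 in Control. Its log2 fold change of 8.34 without Control library 1 rested on that 0. DUSP3, a small atypical phosphatase of ERK and JNK, had 139 and 145 CPM in OE_CBX7 against 122 and 133 CPM in Control (adjusted p = 0.302).

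**Figure D4:**
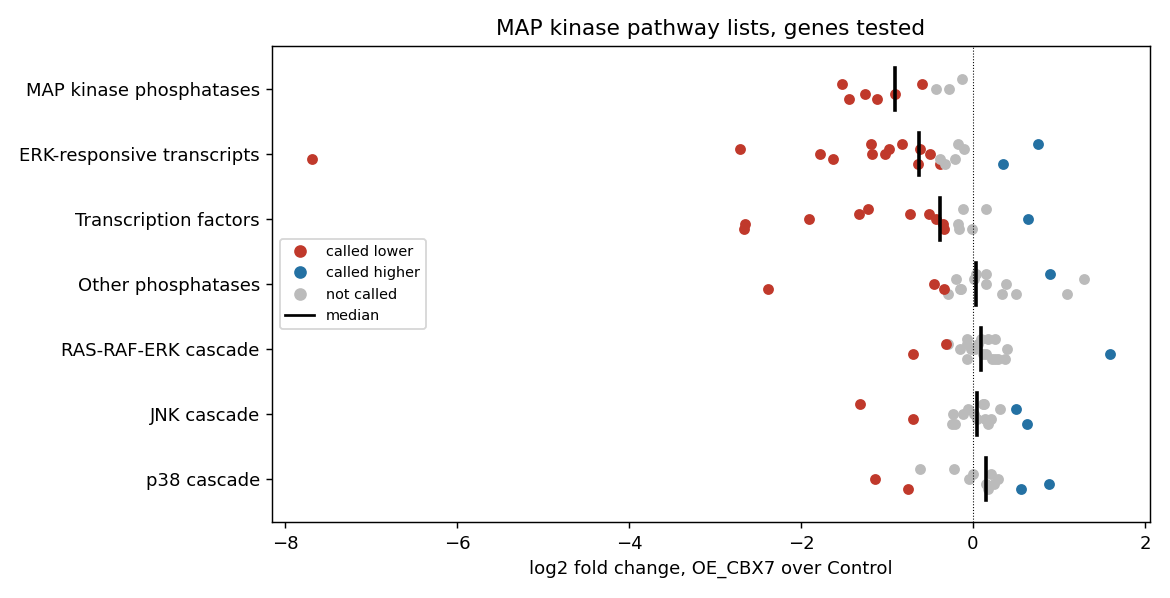
Log2 fold change (OE_CBX7 over Control) of every tested gene of 7 lists, 1 point per gene, coloured by call, with the list median as a vertical bar. The medians of the MAP kinase phosphatases (-0.91), ERK-responsive transcripts (-0.62) and transcription factors (-0.39) lie below 0, and those of the 3 kinase lists lie between 0.044 and 0.15.

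For DUSP5, the member with the smallest p, the 3 genes outside the family with the closest pattern over the 4 libraries were PSME1, CTSO and IKBKE, among 17262 genes compared. Likeness was the Euclidean distance between log2 CPM values centred on each gene's mean, and these distances were 0.0488, 0.0540 and 0.0558. PSME1, a proteasome activator subunit, had 116 and 121 CPM in OE_CBX7 against 317 and 306 CPM in Control. The log2 fold changes of PSME1, CTSO and IKBKE were -1.39, -1.43 and -1.41, beside -1.44 for DUSP5. This likeness follows from how these genes were chosen.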

How the data were processed

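RNA from 4 A549 libraries was measured. The authors deposited estimated counts for each gene and library. StringTie 2.2.1, HISAT2 2.2.1, the build hg38 and DESeq2 are named per the submitters' processing notes, with no role assigned. The sources used here do not give the annotation, the strandedness or the handling of shared reads. The estimated counts deposited by the authors were whole already and were not changed by rounding; a 0 may be a failed estimate. Columns were matched to samples by title.

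All genes were fitted with edgeR 4.0.16 in R 4.3.3 (filterByExpr, TMM, robust quasi-likelihood test, group as the only term), with Benjamini-Hochberg adjustment over 17271 genes and a threshold of 0.05. SEs came from the log2 fold change and its F statistic. Alternatives were DESeq2 1.42.0, limma-voom (limma 3.58.1), other scalings and filters, a replicate block and each library left out. Between 19678 and 20379 genes had a count above 0 per library. Libraries of the same group were not repeat entries of each other (chi-square of their counts over degrees of freedom: 42.3 in OE_CBX7 and 54.2 in Control). The 95% intervals of log2 fold changes include the fitted spread between libraries, while floors of counts cover counting error only.

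The members, gene lists and motifs were chosen with earlier results of these data known. In each list the text names up to 6 called genes with the smallest p, with some left out; other genes named were chosen after their values were seen. STYXL2 is in the table as DUSP27. A comparison of the proteins was not done here, and some list genes are not reported here.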

Additional observations from a re-analysis of the deposited data

How the results depend on the processing

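The 6 called members were called under all 11 alternatives, and DUSP4, DUSP7 and DUSP14 under none; every member log2 fold change stayed negative. Leaving out each library in turn gave log2 fold changes from -1.25 to -0.96 for DUSP1, from -1.46 to -1.41 for DUSP5, from -0.95 to -0.85 for DUSP6, from -1.58 to -1.46 for DUSP8, from -1.40 to -1.11 for DUSP10, from -0.71 to -0.45 for DUSP16 and from -0.22 to -0.012 for DUSP4. A group left with 1 library was assumed to vary like the other. The within-library ratios kept their direction: their differences on the log2 scale ran from -1.24 to -0.74 for DUSP1 to DUSP4 and from 1.19 to 1.45 for DUSP4 to DUSP5. The small list counts moved, and the cause was not tested. The RAS-RAF-ERK list had 4 higher genes and 1 lower with library totals in place of TMM, and 3 higher with no filter, with a mean count of 50 or more, with DESeq2 and with the replicate block; its lower genes numbered 3 with a mean count of 50 or more, DESeq2, limma-voom and the replicate block, which added MAP2K1. The other phosphatases had 2 higher genes with library totals, no filter, a mean count of 50 or more and the replicate block. With 1 library left out, higher genes numbered 1 to 3 in the RAS-RAF-ERK list and among the other phosphatases, and 1 to 2 in the ERK-responsive and JNK lists, while lower genes numbered 1 in the RAS-RAF-ERK list and 1 to 2 among the other phosphatases. Lower ERK-responsive genes numbered 11 to 13 and lower transcription factors 7 to 8; with library totals lower transcription factors numbered 7, without ELK3, ELK4 and CREB1.

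The labels share replicate numbers between the groups but do not say that a number marks a shared batch; deviations of same-numbered libraries correlated at 0.108 across genes. The replicate block called 4603 genes instead of 4208 and left all 6 member calls in place. A p that missed the threshold, as for DUSP7 and DUSP14, does not show that the lines had equal levels.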
